A study of Schizosaccharomyces pombe with 8 samples.

Results

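Building a ribosome takes a long list of proteins that never become part of it. They are loaded onto the rRNA precursor in the nucleolus, where the small subunit processome, a particle organised by the U3 snoRNP, cuts and folds the part that becomes 18S rRNA, while another set of GTPases, helicases, methyltransferases and scaffold proteins shapes the large subunit. Fission yeast, as budding yeast, is known to hold down the mRNAs of these factors together when growth is slowed by stress. The mRNA levels described here are those of 72 such factors, out of 5165 genes measured, in Schizosaccharomyces pombe with or without hydrogen peroxide and with or without topoisomerase 1. Members were taken by name alone, as the genes called utp, rrp, nop, noc, nog, nug, nsa, rpf, mpp, enp, ebp, brx, bms, krr, rlp, ytm, erb, tsr, nob, ltv, pwp, sof or rcl and a number, without rrp1 and rrp2. The name rule found 74 genes before those last were left out.

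Both strains were haploid. The Δtop1 strain, in which a kanMX6 cassette replaces top1, and the wild type (WT, strain 972), were grown at 30 °C in rich YE5S medium to an OD600 of 0.5 and either given 1 mM H2O2 for 30 min or left untreated. Each of the 4 groups has 2 libraries of poly(A) RNA, labelled as replicates, so 8 in all. Beyond top1 itself the labels give no further allele, and Δtop1 is represented by 1 strain. Values are normalised counts, that is, reads per gene divided by a size factor for the library. Libraries hold between 16090015 and 19899720 reads on genes. Topoisomerase 1, the enzyme that relaxes supercoiled DNA by nicking 1 strand, is the deleted gene: it had 244 and 244 normalised counts in H2O2-treated Δtop1 cells and 309 and 286 in untreated Δtop1 cells, against 2013 and 2513 in treated WT cells and 1967 and 2150 in untreated WT cells. All 4 libraries labelled Δtop1 were thus below all 4 labelled WT, and the reads that remained in them were not placed within the gene.

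By annotation the 72 members sort into 21 large subunit factors, 9 proteins of the UTP-A and UTP-B modules, 22 other proteins of the small subunit processome, 6 factors acting late on the small subunit, 4 core proteins of snoRNPs, 9 subunits or partners of the RNA exosome (which trims the 3′ ends of rRNA precursors and degrades spacer RNA), and rlp1. The last is annotated as a RecA family ATPase and met the rule by its name only. It is kept in the counts and changes no statement on the others. The genes are scattered, 33 on chromosome I, 32 on II and 7 on III. All were well measured: the lowest number of reads of any member in any library was 155, and all 72 passed the filter of a mean of 10 normalised counts. Per kb of exon, which allows levels of different genes to be set side by side, the highest mean levels in untreated cells were those of nop10 (8165 in Δtop1 and 8230 in WT), nop56 (6895 and 6745) and nop58 (6836 and 6744), which sit in the snoRNPs that guide chemical modification of rRNA. The lowest was that of utp20, at 227 in Δtop1 and 183 in WT, a long scaffold of the processome.

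The first question is what H2O2 did to these mRNAs. They went down nearly as a block in both strains. In Δtop1 68 of 72 members were lower after H2O2 (adjusted p under 0.1 by limma, a linear model with a spread shared over genes, here on log2 of normalised count plus 1), where 34.9% of the 5019 genes tested were lower and 35.9% higher. In WT 69 of 72 were lower, where 35.6% of genes tested were lower and 36.4% higher. Only rrp45 was higher, in either strain. With at least a 2-fold fall required, 53 members were lower in Δtop1 (10.8% of genes tested) and 37 in WT (11.3%). The median log2 fold change of the members was -1.37 in Δtop1 and -1.04 in WT, while that of all genes tested was 0.00 in each.

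The replicates told the same story library by library. For 69 of the 72 members all 4 treated libraries were below all 4 untreated ones, as they were for 30.8% of genes tested. Added up, the 72 members took 0.525% and 0.516% of the reads on genes in treated Δtop1 cells, against 1.51% and 1.43% in untreated Δtop1 cells. In WT the shares were 0.509% and 0.569% after H2O2, against 1.45% and 1.39% untreated. On this scale the treated strains overlapped. With 2 libraries a group, an exact permutation test between 2 groups cannot give a p below 0.333, so single values rest on the fit over all genes. The study's methods call the 2 replicates of a group biological, and the labels give nothing beyond their numbers. The p-values here measure the spread between these libraries. RNA came from whole cultures and each library is set to its own total or median, so less mRNA per cell and fewer cells carrying it cannot be told apart.

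**Figure D1:**
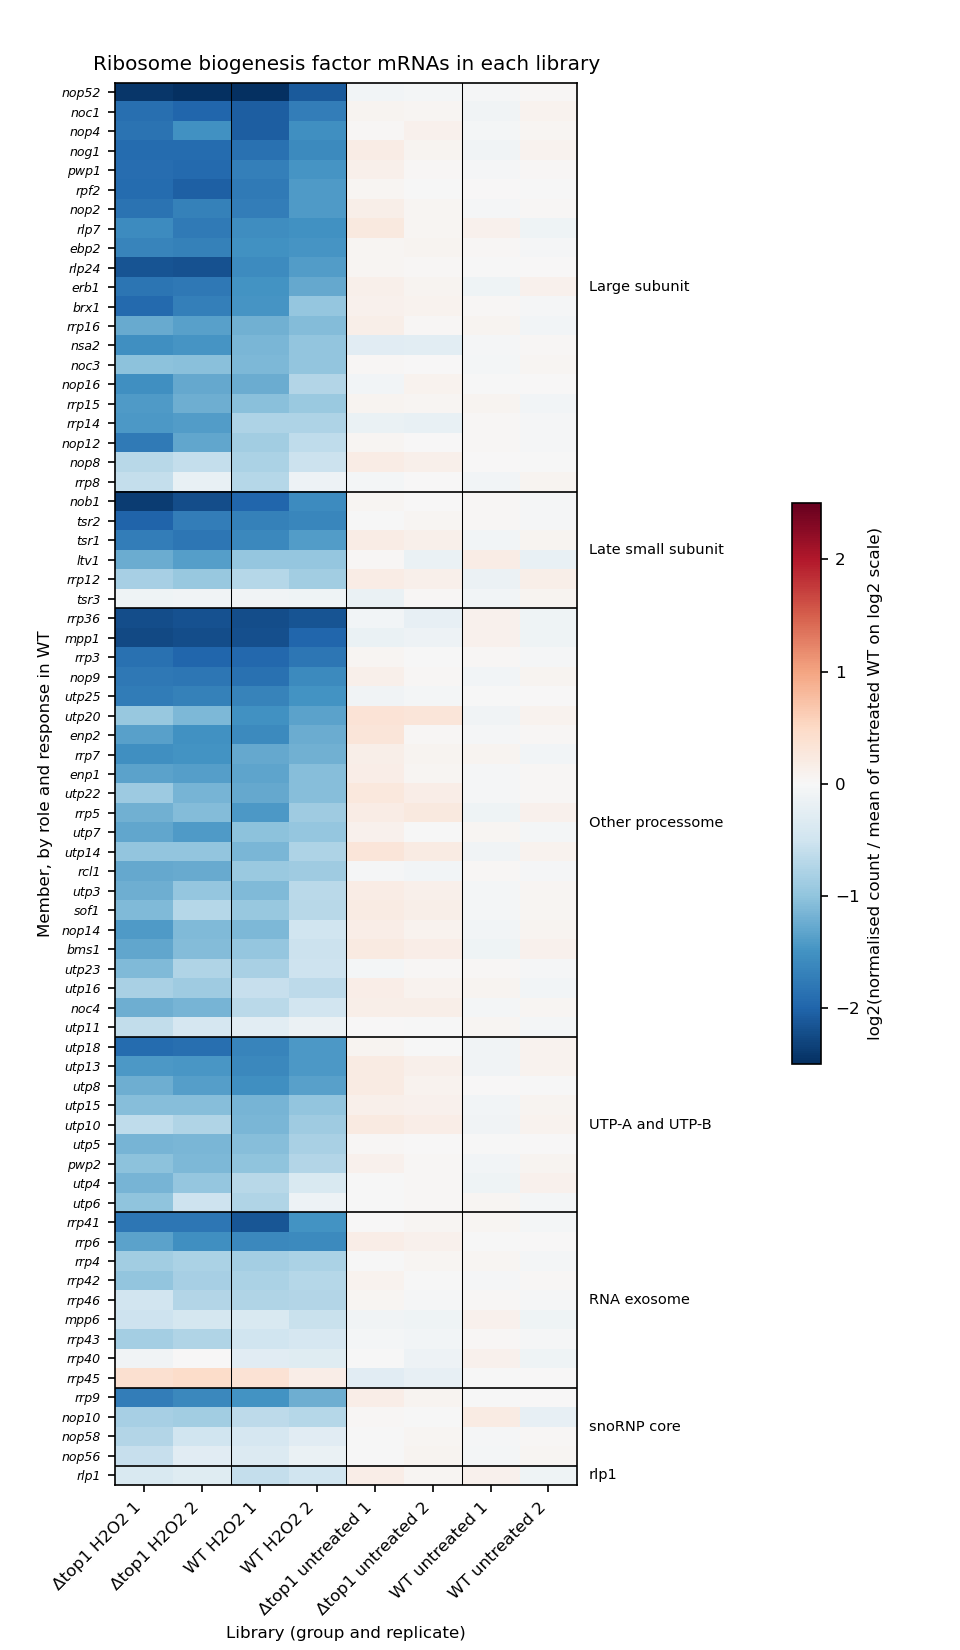
Heat map of the 72 members (rows, by role and then by response in WT) in the 8 libraries (columns, by group); colour gives the log2 ratio of the normalised count to the log-scale mean of the 2 untreated WT libraries, blue for lower. The 4 treated columns at the left are blue for nearly all members, with tsr3, rrp40 and rrp45 standing out as pale or red, while the untreated columns stay near 0.

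Among the scales tried, the choice changed how deep the fall was and not its presence. All of these scales are relative to the other genes of a library, and mRNA per cell was not measured. The normalised counts of the treated libraries sum to more, between 17657867 and 20768094, against 15174360 to 16345769 in the untreated. Setting all libraries to the same total moved the median of all genes to -0.20 in Δtop1 and -0.37 in WT, and the members to -1.57 and -1.41. Such a rescaling shifts all genes of a library alike. The members' median minus that of all genes therefore stayed, by construction, at -1.37 in Δtop1 and -1.04 in WT. Of 72 members, 70 were called lower in Δtop1 and 71 in WT, where 2300 and 2823 of the 5019 genes tested were. Some members share their place in the genome with another gene read in the opposite direction. For 10 of them over 10% of the exon length is covered by exons of an antisense protein-coding gene (rrp7, tsr3, noc3, mpp1, rrp42, tsr2, nop2, ebp2, rrp45 and utp13), and the sources do not say whether the counting used the strand. Among the other 62, 60 were lower in Δtop1 and 61 in WT, with medians of -1.35 and -0.99.

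Large subunit factors fell furthest as a group. In Δtop1 20 of 21 were lower, 19 of them by at least 2-fold, with a median log2 fold change of -1.75. In WT all 21 were lower, 15 by at least 2-fold, with a median of -1.39. The member with the deepest fall of all 72 was nop52, a nucleolar protein of the family needed for processing of the spacer RNAs (chrII:1824553-1825623, + strand, ASM294v3). It had 295 and 284 normalised counts in treated Δtop1 cells, against 1521 and 1544 in untreated ones. In WT it had 283 and 373 after H2O2, against 1575 and 1629 untreated. Treated and untreated libraries were thus far apart in both strains, the level being 5.28-fold lower in Δtop1 (log2 fold change -2.40 ± 0.13 SE, limma adjusted p = 1.18e-06) and 4.92-fold lower in WT (-2.30 ± 0.13, adjusted p = 1.65e-06).

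The next deepest falls of the large subunit group in WT were those of noc1, nop4 and nog1. In Δtop1 the order was another: rlp24 came after nop52 (log2 fold change -2.20 in Δtop1 and -1.49 in WT), then nog1, and nop4 lay at the group's median. The gene noc1, whose budding yeast counterpart travels with early precursors of the large subunit, had 1328 and 1243 normalised counts after H2O2, against 5185 and 5080 untreated, in Δtop1, and 1175 and 1489, against 4623 and 5241, in WT. For nog1, a GTPase of the precursor particles, the counts were 2670 and 2658, against 11450 and 10627, in Δtop1, and 2750 and 3340, against 9452 and 10767, in WT. In both genes and both strains every treated library lay far below every untreated one. Fold changes were 3.99 and 3.72 lower for noc1 in Δtop1 and WT, and 4.14 and 3.33 lower for nog1 (the largest limma adjusted p of these 4 was 4.03e-06). The group's median member in WT, erb1, a scaffold of the complex that readies the particle for processing of its second internal spacer, fell 3.74-fold in Δtop1 and 2.61-fold in WT. At the other end rrp8, a methyltransferase of the large rRNA, had 1149 and 1518 counts after H2O2, against 1670 and 1739 untreated, in Δtop1, which did not pass the test (log2 fold change -0.37, limma adjusted p = 0.121). In WT it had 1063 and 1581, against 1647 and 1824, and passed narrowly (-0.42, adjusted p = 0.0826).

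The genes erb1 and nop4 lie head to head on chromosome II, with 194 bases between their starts, and are the only pair within 1000 bases in which both are members. Both fell in both strains, nop4 by 3.36-fold in Δtop1 and 3.47-fold in WT. The whole gap (chrII:2716660-2716853, ASM294v3, from the RefSeq genome) is shown because it holds the start side of both genes; it is read towards erb1, on the minus strand, a long non-coding RNA is also annotated across it, and it holds none of the motifs searched below.
erb1-nop4 gap: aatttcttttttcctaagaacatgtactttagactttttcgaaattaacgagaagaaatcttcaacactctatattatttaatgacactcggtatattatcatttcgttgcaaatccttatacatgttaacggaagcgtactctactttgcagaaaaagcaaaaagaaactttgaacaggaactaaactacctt

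The small subunit processome fell by less. Its 22 members outside the UTP-A and UTP-B modules were all lower in both strains, 19 of them by at least 2-fold in Δtop1 and 11 in WT, with medians of -1.37 and -1.08. The deepest falls were those of rrp36, needed for early cleavages of the precursor, of mpp1, the counterpart of budding yeast Mpp10 that binds U3 snoRNA partners, and of the helicase rrp3. After H2O2, rrp36 had 185 and 191 normalised counts in Δtop1, against 818 and 746 untreated. In WT it had 186 and 192 after H2O2, against 930 and 798 untreated. The 4 treated libraries were nearly level with each other, and the fall was 4.13-fold in Δtop1 (log2 fold change -2.05 ± 0.12 SE, limma adjusted p = 1.45e-06) and 4.53-fold in WT (-2.18 ± 0.12, adjusted p = 1.20e-06). For mpp1 the treated libraries had 613 and 632 counts in Δtop1, against 2628 and 2683, and 640 and 744 in WT, against 3171 and 2727, a fall of 4.26-fold in both strains. The helicase rrp3 was 3.86-fold lower in Δtop1 and 3.69-fold lower in WT. The gene mpp1 is among those with an antisense neighbour: pnk1 covers 95.2% of its exon length and itself had log2 fold changes of -0.24 in Δtop1 and -0.35 in WT. The typical member in WT, rrp5, an RNA-binding protein that serves both subunits, was 2.55-fold lower in Δtop1 and 2.24-fold lower in WT. The smallest fall was that of utp11, with 1074 and 1224 counts after H2O2, against 1644 and 1623 untreated, in Δtop1 (1.42-fold lower), and 1371 and 1484, against 1697 and 1579, in WT (1.15-fold lower, limma adjusted p = 0.0925).

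All 9 proteins of the UTP-A and UTP-B modules, which are the first to assemble on the 5′ spacer of the nascent precursor, were lower in both strains, 7 by at least 2-fold in Δtop1 and 5 in WT. Their medians were -1.17 in Δtop1 and -1.02 in WT. The UTP-B protein utp18 fell most, by 3.80-fold in Δtop1 and 2.93-fold in WT, and utp6 least, with 944 and 1325 counts, against 1899 and 1945, in Δtop1, and 1131 and 1731, against 1966 and 1838, in WT. The 2 treated WT libraries of utp6 lay far apart, and its adjusted p by limma was 0.0911. The UTP-A scaffold utp10, the median member in WT, was 1.84-fold lower in Δtop1 and 2.02-fold lower in WT.

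Factors that act late, after the small subunit precursor has left the nucleolus, fell too, but for 1. Over the 6 genes the median log2 fold change was -1.556 in Δtop1 and -1.235 in WT, second to the large subunit factors. The endonuclease nob1, which makes the last cut at the 3′ end of 18S rRNA, had 543 and 606 normalised counts in treated Δtop1 cells, against 2935 and 2850 in untreated ones. In WT it had 719 and 945 after H2O2, against 2881 and 2778 untreated. The fall was 5.03-fold in Δtop1 (log2 fold change -2.33 ± 0.13 SE, limma adjusted p = 1.33e-06) and 3.43-fold in WT (-1.78 ± 0.13, adjusted p = 6.75e-06). The GTPase-like factor tsr1, the deeper of the middle pair of the group in WT, was 3.79-fold lower in Δtop1 and 2.84-fold lower in WT. By contrast tsr3, an enzyme that modifies a single base of 18S rRNA, had 956 and 968 counts, against 915 and 1054, in Δtop1, and 972 and 950, against 983 and 1075, in WT. It passed the test in neither strain (limma adjusted p = 0.800 in Δtop1 and 0.405 in WT). Its exons are covered over their whole length by the antisense gene sro7, whose log2 fold changes were 0.47 in Δtop1 and -0.11 in WT.

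Core snoRNP proteins were lower by less. Of 4, 4 were lower in Δtop1 and 3 in WT, and only rrp9, specific to the U3 particle, by at least 2-fold, at 3.45-fold lower in Δtop1 and 2.57-fold lower in WT. The box C/D proteins nop56 and nop58, among the most abundant members per kb, had shallow falls. In Δtop1 nop56 had 7543 and 9287 counts after H2O2, against 11248 and 11795 untreated (1.38-fold lower, limma adjusted p = 0.0101). In WT it had 8901 and 10046, against 10873 and 11670, which did not pass (1.19-fold lower, adjusted p = 0.102), although the replicates did not overlap. For nop58 the falls were 1.55-fold in Δtop1 and 1.28-fold in WT. The H/ACA protein nop10 fell by 1.80-fold in Δtop1 and 1.61-fold in WT. Across all 72 members, level and depth of fall were nearly unrelated: log2 level per kb in untreated Δtop1 cells and log2 response in WT had Pearson's r of -0.14 and Spearman's rho of -0.21, across genes that are not independent replicates.

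Exosome genes were the most mixed. Of 9, 7 were lower in Δtop1 and 8 in WT, 2 of them by at least 2-fold in either strain, with a median of -0.74 in both. Those were rrp41, a ring subunit with 296 and 296 counts, against 1036 and 1069, in Δtop1, and 235 and 369, against 1072 and 1000, in WT, and rrp6, the nuclear exonuclease, which was 2.98-fold lower in Δtop1 and 3.04-fold lower in WT. Ring subunit rrp46, the median in WT, was 1.53-fold lower in Δtop1 and 1.67-fold lower in WT. The cap subunit rrp40 had 1142 and 1226 counts, against 1213 and 1121, in Δtop1, with overlapping libraries and no call (limma adjusted p = 0.855), and 997 and 987, against 1307 and 1140, in WT (1.23-fold lower, adjusted p = 0.0238). Outside the roles, rlp1 was 1.36-fold lower in Δtop1 and 1.46-fold lower in WT.

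The ring subunit rrp45 went the other way (chrIII:62814-64464, + strand, ASM294v3). It had 1083 and 1129 normalised counts in treated Δtop1 cells, against 679 and 711 in untreated ones, a log2 fold change of 0.67 ± 0.09 SE (limma adjusted p = 0.000276). In WT it had 1052 and 928 after H2O2, against 819 and 824 untreated, a log2 fold change of 0.27 ± 0.09 (adjusted p = 0.0317). The rise in Δtop1 held under each alternative and with each library left out. That in WT did not: it turned to -0.11 with libraries set to the same total and to -0.03 with the same upper quartile, and without WT treated replicate 1 it was 0.18 (adjusted p = 0.185). The antisense gene rnc1 covers 24.4% of the exon length of rrp45 and had log2 fold changes of -0.58 in Δtop1 and -0.15 in WT.

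**Figure D2:**
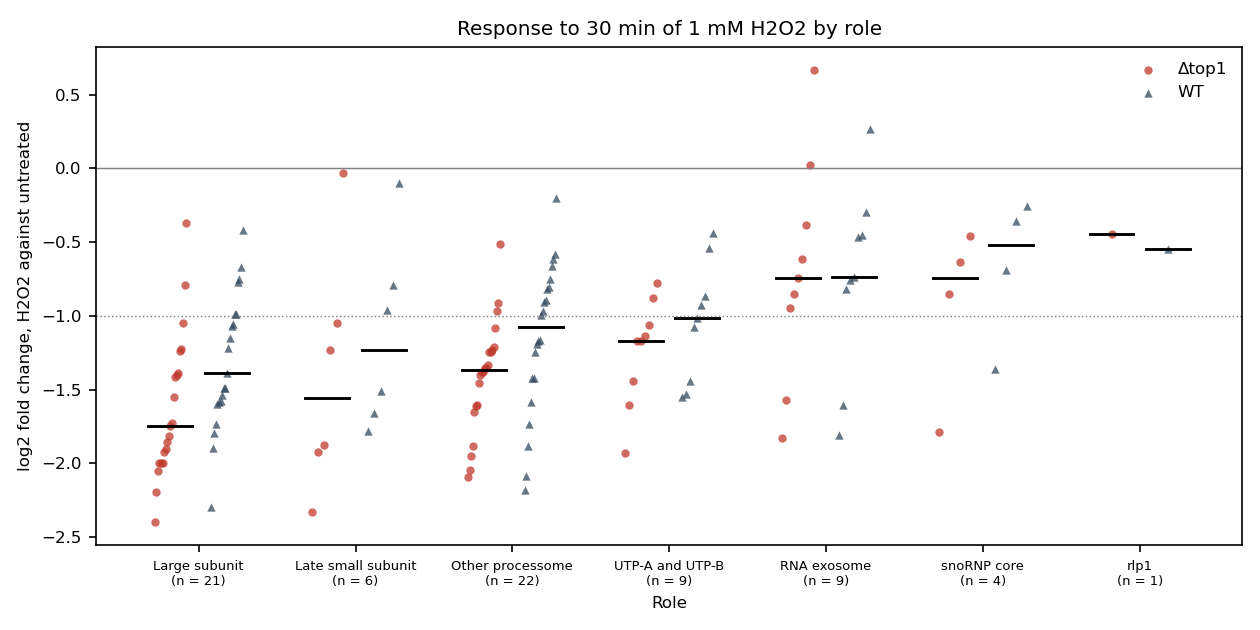
Log2 fold change of each member after H2O2 against untreated cells (y axis), by role (x axis); red circles are Δtop1, dark triangles WT, horizontal bars the median of each role, and the dotted line a 2-fold fall. The median falls to -1.75 in Δtop1 and -1.39 in WT for the large subunit factors and to -0.74 in both strains for the exosome, where rrp45 lies above 0.

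**Figure D3:**
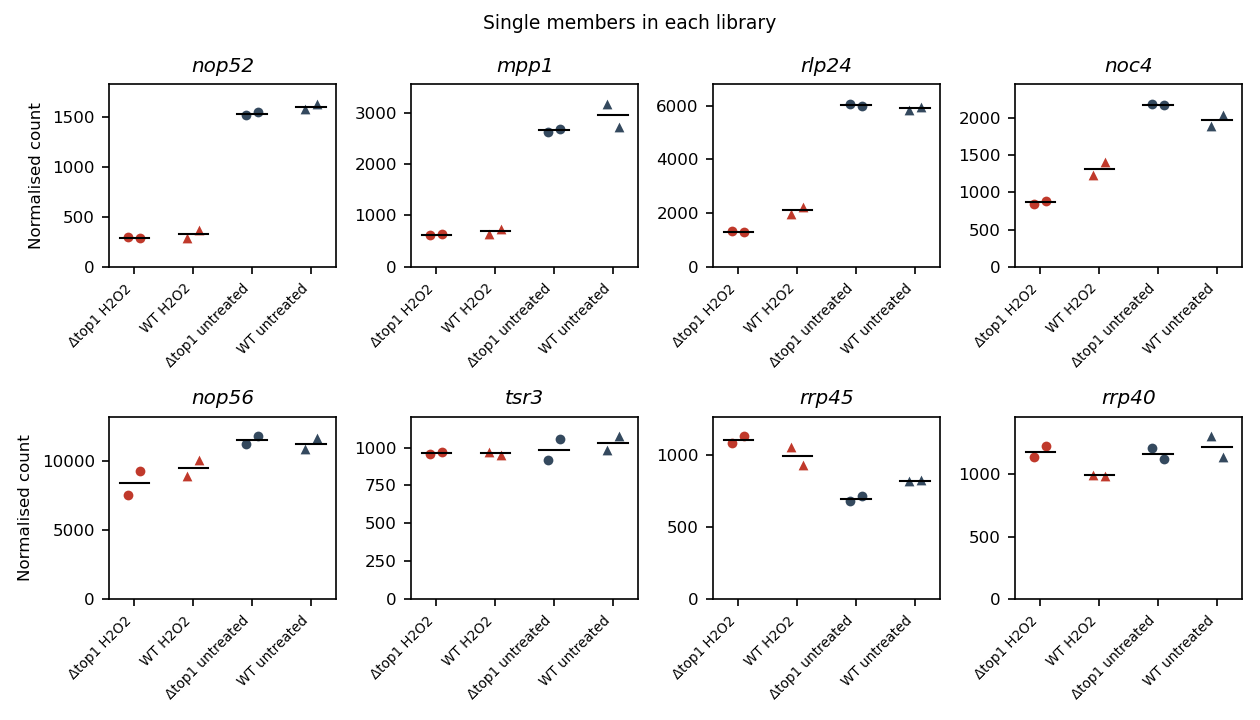
Normalised counts (y axis, from 0) of 8 members in each library, by group; points are libraries, bars the mean of 2, circles Δtop1 and triangles WT, red for H2O2. The treated libraries of nop52 lie between 283 and 373 and the untreated between 1521 and 1629, those of tsr3 are intermixed with untreated ones, and those of rrp45 lie above them.

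What stands upstream of these genes was looked up in the 250 bases before and 50 after each annotated start, on both strands. In fission yeast the promoters of ribosomal protein genes are known for the HomolD box, CAGTCACA, often next to a HomolE box, whose core CCCTACCC was searched. The HomolD letters were found before 64.3% of the 129 cytosolic ribosomal protein genes, 2.78% of members (2 of 72) and 2.69% of all 5096 genes with such a window. HomolE letters were found before 35.7% of ribosomal protein genes, 1.39% of members and 1.59% of all genes. A pair of words known from ribosome biogenesis genes of Saccharomyces cerevisiae, the core of its RRPE (AAAAATTTT) and of its PAC (GATGAG), were present before 6.94% and 12.5% of members, against 5.14% and 8.61% of all genes. The letters TGACGT, the core to which the stress factor Atf1 is known to bind, were before 4.17% of members, against 5.93% of all genes; the 3 members were rrp45, rrp8 and pwp1, of which pwp1, a large subunit factor, fell in both strains, by 3.02-fold in WT. In rrp45 they lie outside the stretch printed below. TATAAA was before 36 of 72 members and 48.2% of all genes. The motifs do not overlap one another in the sequences printed here.

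The pair with HomolD letters, mpp1 and rlp7, are shown with the 30 bases around them. Of the 137 genes with those letters in the window, 83 are cytosolic ribosomal protein genes. Capitals mark HomolD and, in mpp1, also the HomolE core (plus strand, ASM294v3, from the RefSeq genome). The HomolD letters begin 78 bases before the start of mpp1 (chrI:2135851-2135880) and 47 before that of rlp7 (chrI:1712734-1712763), a large subunit factor resembling a ribosomal protein. An annotated long non-coding RNA overlaps the rlp7 stretch.
mpp1: aaaaCAGTCACAaaCCCTACCCttcttata
rlp7: aaagCAGTCACAtttcatagctataatttt
In mpp1 the boxes, over which the annotation also places an exon of the upstream gene SPAC23C11.01, stand in the 122 bases that separate it from rps23, the gene of a small subunit protein read in the opposite direction. The neighbours differed after H2O2: mpp1 had log2 fold changes of -2.09 in Δtop1 and -2.09 in WT, and rps23 -0.30 (limma adjusted p = 0.101) and 0.09 (adjusted p = 0.600). The gene rlp7 had 1646 and 1431 counts after H2O2, against 5772 and 5060 untreated, in Δtop1, and 1655 and 1699, against 5273 and 4486, in WT.

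The members with the deepest fall and with a rise are shown with the stretch before their start that lies in no annotated exon, up to 250 bases. Capitals mark TATAAA, found in rrp45 and not in nop52 (chrII:1824303-1824552 and chrIII:62634-62813, plus strand).
nop52: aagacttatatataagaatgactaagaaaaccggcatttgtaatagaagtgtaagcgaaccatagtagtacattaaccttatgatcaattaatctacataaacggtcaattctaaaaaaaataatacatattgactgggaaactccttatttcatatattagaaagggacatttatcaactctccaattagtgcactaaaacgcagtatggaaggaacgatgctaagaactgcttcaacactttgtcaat
rrp45: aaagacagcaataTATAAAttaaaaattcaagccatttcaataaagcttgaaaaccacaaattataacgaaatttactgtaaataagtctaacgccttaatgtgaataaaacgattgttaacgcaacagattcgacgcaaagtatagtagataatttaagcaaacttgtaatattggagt

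Whether the strains differed before stress was asked next, and no member passed the test. Of 72 members, 0 were called higher and 0 lower in untreated Δtop1 against untreated WT (0.279% of genes tested were higher and 0.339% lower), also 0 with edgeR or DESeq2 on the reads. The difference was above 0 for 56 members, with a median of 0.05 on the log2 scale, where that of all genes tested was 0.01. Replicates of the untreated strains did not overlap for 25 members with Δtop1 above (20.7% of genes tested) and 7 with Δtop1 below (15.9%). The smallest adjusted p by limma was 0.594. An unadjusted p under 0.05 was found for 4 members, about as many as that threshold passes where nothing differs. These were nsa2 (-0.27), utp20 (0.32), rrp45 (-0.24) and rrp14 (-0.18).

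After H2O2 the strains differed modestly, in a part of the members. In treated Δtop1 cells against treated WT cells 22 of 72 were lower and 3 higher, where 14.7% of genes tested were lower and 17.1% higher. The median log2 difference was -0.17, and it was -0.26 without WT treated replicate 1 and -0.09 without WT treated replicate 2. A fall of at least 1.5-fold was found for 5 (4.52% of genes tested): nop12, rlp24, rrp14 and brx1, all of the large subunit, and noc4 of the processome. The replicates of the treated strains did not overlap for 37 members with Δtop1 below (30.9% of genes tested) and 6 with Δtop1 above (32.5%). Libraries decide part of this count: 7 members were lower without Δtop1 treated replicate 1 and 10 without WT treated replicate 2, the library in which 65 of 72 members stood above its replicate 1 (median log2 difference 0.19; 51.2% of genes tested did). Scale decides part as well. With libraries set to the same total, the median of all genes moved to 0.16 and that of the members to -0.02. Then 9 members were lower and 7 higher, where 406 and 1502 of the 5019 genes tested were. The members' median minus that of all genes, which such a rescaling leaves in place, was -0.18.

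The factor rlp24, which in budding yeast holds the place of a ribosomal protein on precursors of the large subunit until they reach the cytoplasm, had 1315 and 1307 normalised counts in treated Δtop1 cells, against 1974 and 2231 in treated WT cells, a log2 difference of -0.68 ± 0.08 SE (limma adjusted p = 0.00291). Untreated, it had 6055 and 5975 in Δtop1, against 5839 and 5947 in WT. The treated strains were apart and the untreated ones nearly level. For noc4, partner of nop14 in the processome, the counts were 844 and 887, against 1230 and 1413, after H2O2 (-0.61 ± 0.09, adjusted p = 0.00586), and 2191 and 2174, against 1899 and 2050, untreated. For rrp14, needed for the large subunit, they were 822 and 852, against 1301 and 1310, after H2O2 (-0.64 ± 0.07, adjusted p = 0.00215), and 2000 and 1955, against 2269 and 2197, untreated. The RNA-binding protein nop12 had 780 and 1080, against 1457 and 1694 (-0.77 ± 0.15, adjusted p = 0.0116). The large subunit factor brx1 had 1032 and 1222, against 1436 and 2025 (-0.60 ± 0.15, adjusted p = 0.0301), and its call was lost without Δtop1 treated replicate 1 (-0.48, adjusted p = 0.190). Those higher in treated Δtop1 cells were utp20, with 713 and 635, against 485 and 550 (0.38 ± 0.11, adjusted p = 0.0410), utp10, with 2278 and 2110, against 1598 and 1925 (0.32 ± 0.11, adjusted p = 0.0736), and rrp40, with 1142 and 1226, against 997 and 987 (0.25 ± 0.10, adjusted p = 0.0952). Between untreated strains utp20 already had a log2 difference of 0.32, the largest of the 72 members, though without a call. The calls of utp20, utp10 and rrp40 in treated cells all rest on single libraries. That of utp20 was lost without WT treated replicate 1 (0.29, adjusted p = 0.160) or Δtop1 treated replicate 1 (0.30, 0.220). That of utp10 was lost without WT treated replicate 1 or without any 1 of the 4 Δtop1 libraries (adjusted p between 0.115 and 0.301), and that of rrp40 without any 1 treated or any 1 Δtop1 library (between 0.141 and 0.278).

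Whether the response itself differed between strains was tested as the response in Δtop1 minus that in WT. This difference was below 0 for 58 of 72 members, with a median of -0.25, where that of all genes tested was 0.01. An unadjusted p under 0.05 by limma was found for 24 members. How many of all genes had one was not counted, so whether 24 is many cannot be said. After adjustment 3 were called lower and 0 higher, where 1.83% and 2.13% of genes tested were. The 3 were rlp24 at -0.71 ± 0.12 SE (limma adjusted p = 0.0361), noc4 at -0.75 ± 0.13 (adjusted p = 0.0456) and rrp14 at -0.47 ± 0.11 (adjusted p = 0.077). With DESeq2 on the reads 7 were lower, where 222 of the 5019 genes tested were. The calls of rlp24 and noc4 were lost without any 1 of 4 libraries: WT untreated replicate 1 (adjusted p = 0.108 and 0.123), Δtop1 untreated replicate 1 (0.180 and 0.186), Δtop1 untreated replicate 2 (0.148 and 0.166) and Δtop1 treated replicate 1 (0.129 and 0.168). The call of rrp14 was kept only without Δtop1 treated replicate 2; without any other library its adjusted p lay between 0.125 and 0.286, and at the same total it was 0.220 (-0.29). The most negative difference, that of nop12 (-0.80 ± 0.21), did not pass (adjusted p = 0.104). With libraries at the same total, 44 members were below 0. In that scale and in the one used throughout, 60 lay below the median of all genes, a count that such a rescaling leaves in place.

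By role, the difference was below 0 for 18 of 21 large subunit factors, 20 of 22 processome proteins outside the modules, 7 of 9 in the UTP-A and UTP-B modules, 5 of 6 late factors, 4 of 4 snoRNP proteins and 4 of 9 exosome genes. The responses of the members in the strains ran close to each other, each against its own untreated cells: Pearson's r was 0.91 and Spearman's rho 0.91 across 72 members, and r was 0.91 across all 5019 genes tested. In all, 67 members were lower in both strains. By at least 2-fold, 36 were lower in both, 17 only in Δtop1 and 1 only in WT. A fall of 4-fold or more was seen for 7 members in Δtop1 and 3 in WT. Shares over all genes were not counted for these. For each strain taken alone, 10.8% of genes tested were at least 2-fold lower in Δtop1 and 11.3% in WT. The split by threshold depends on the scale. In WT the members' median was -1.04, close to a 2-fold fall, and -1.41 with libraries set to the same total. In Δtop1 it was -1.37 and -1.57.

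**Figure D4:**
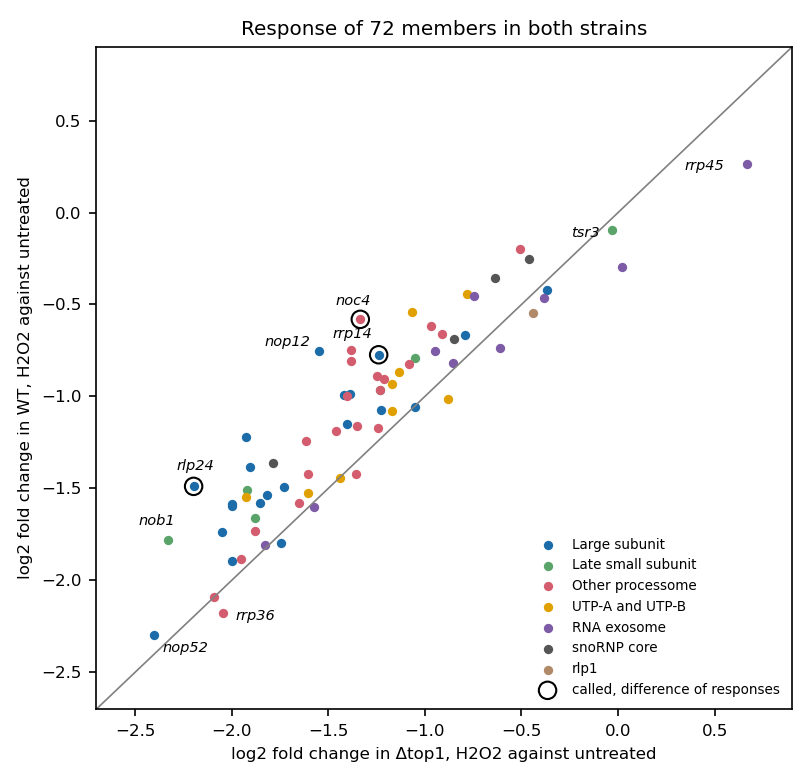
Log2 fold change after H2O2 against untreated cells in Δtop1 (x axis) and WT (y axis) for the 72 members, coloured by role; the line marks equal responses and rings the 3 members whose responses differed. Most points, 58 of 72, lie above the line, that is, with a lower value in Δtop1.

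Genes of the same pathway under other names were lower too, in a list set with earlier results of these data known. Of 83 further biogenesis genes listed by name, 60 are in the table, and 55 remained once those annotated with another function were left out; of these 53 were lower in Δtop1 and 53 in WT, with median log2 fold changes of -1.56 and -1.14. The helicase dbp3 had 1362 and 1320 counts after H2O2, against 8270 and 8130 untreated, in Δtop1, and 1389 and 1632, against 7407 and 8598, in WT, a deeper fall than that of any member. The anti-association factor tif6 was the only one called higher, in WT (0.29, limma adjusted p = 0.0645; -0.08 in Δtop1, adjusted p = 0.596); with libraries set to the same total or upper quartile, or by quantile normalization, 0 were higher in WT. All 8 genes of RNA polymerase I, which makes the rRNA precursor, were lower in both strains, with medians of -1.26 in Δtop1 and -0.96 in WT.

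Ribosomal protein genes had smaller median changes than the factors that build the ribosome. Of 129, 103 were lower after H2O2 in Δtop1, with a median log2 fold change of -0.48, and 12 lower and 5 higher in WT, with a median of 0.03. Here the scale decides the call: at the same total 124 were lower in Δtop1 (median -0.68) and 99 in WT (-0.35), and by quantile normalization 123 and 115 (-0.66 and -0.43). In each of these scales the median of the ribosomal protein genes was above that of the members, which by quantile normalization was -1.54 in Δtop1 and -1.26 in WT. As a share of reads, ribosomal protein genes took 11.2% and 12.9% in treated Δtop1 cells, against 19.1% and 18.9% in untreated ones, and 15.1% and 15.4% in treated WT cells, against 19.9% and 18.5%. Between treated strains 101 of 129 were lower in Δtop1 (median -0.51), 89 at the same total (-0.36) and 51 by quantile normalization (-0.23).

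**Figure D5:**
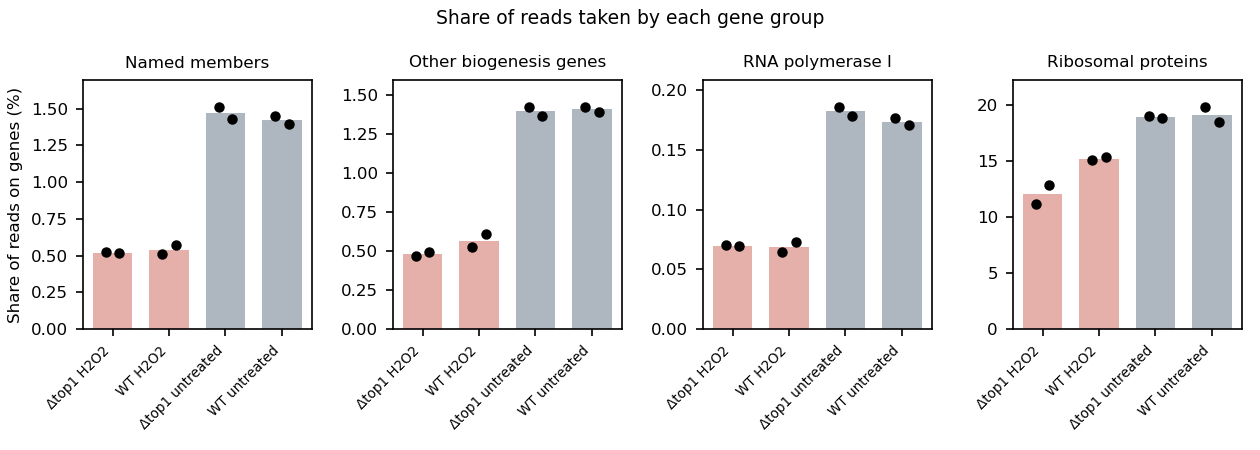
Share of all reads on genes (y axis, percent, from 0) taken by the 72 members, 55 other biogenesis genes, 8 RNA polymerase I genes and 129 ribosomal protein genes; points are libraries and bars the mean of 2. The members take between 0.509% and 0.569% in treated and between 1.39% and 1.51% in untreated libraries of both strains, while ribosomal protein genes take 11.2% and 12.9% in treated Δtop1 cells and 15.1% and 15.4% in treated WT cells.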

How the data were processed

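RNA was prepared with hot phenol, and libraries were made from poly(A) RNA with a kit that keeps the strand and read as single reads of 50 nt. The deposited signal values are counts per gene which the authors had divided by DESeq2 size factors; the sources differ on the counting, the study's methods naming Salmon on transcripts of ASM294v2 and the processing notes of the submitters Trimmomatic, STAR and HTSeq. Values of 5164 of 5165 genes in each library were whole multiples (within 0.01) of what 1 read is worth, which gave back the reads. From log2(value + 1), genes with a mean of at least 10 (5019) were fitted with limma 3.58.1 (R 4.3.3) as 4 group means over the 8 libraries, with trended variances and two-sided tests, Benjamini-Hochberg adjusted over all genes tested; a call is an adjusted p under 0.1, in 5 comparisons. A fold change on this scale understates that of low genes. The fit was also tested on simulated counts. Members, roles and lists were chosen with earlier results of these data known. Genes are named by rule. Taken were the 5 largest called changes in each direction whose replicates do not overlap (for the difference of responses, the 5 smallest p). Members against the trend and the median member of each role in WT were taken too. Others named (nop4, rrp8, utp6, utp11, utp18, rrp41, rrp6, rrp9, nop56, nop58, tsr3, rlp7, pwp1, nsa2, ltv1, utp22) were chosen after their values were seen. So was dbp3, outside the members. Alternatives were edgeR 4.0.16 and DESeq2 1.42.0 on the reads, other scalings, pseudocounts and filters, a replicate block and leaving out each library. Sequences, positions and products are from RefSeq, ASM294v3; 5129 of 5165 genes and all 72 members matched. Columns left unused number 0.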

Additional observations from a re-analysis of the deposited data

Results flagged for a closer look

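For 3 members the response to H2O2 differed between strains by a test of that difference (limma, adjusted p under 0.1), the response in Δtop1 being the more negative in each. The differences on the log2 scale were -0.753 for noc4, -0.708 for rlp24 and -0.466 for rrp14. Over all genes tested, 1.83% were called lower and 2.13% higher by this test. Each of the 3 calls was lost when certain single libraries were left out, and that of rrp14 also with libraries at the same total.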

How the results depend on the processing

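Counts of members called kept within 1.5 times under each alternative run except those given here. At the same total, 0 were higher in WT and 58 at least 2-fold lower in WT. Between treated strains, 7 were then higher and 9 lower (1502 and 406 of the 5019 genes tested). At the same upper quartile, 0 were higher in WT. Between treated strains 1 was higher by quantile normalization, 1 without the variance trend, 1 at an adjusted p under 0.05, and with only the groups compared in the fit 0 were higher and 13 lower. For the difference of responses DESeq2 called 7 lower (222 of the 5019 genes tested). With 1 library left out in turn, members lower in Δtop1 numbered 68 to 69 and in WT 65 to 70, at least 2-fold lower 52 to 55 and 31 to 45, higher 1 in Δtop1 and 0 to 1 in WT, between treated strains 7 to 28 lower and 0 to 3 higher, and for the difference of responses 0 to 8 lower and 0 higher; untreated strains gave 0 throughout. Of the 30 named values, the alternatives other than left-out libraries gave 342 values on the same side of the threshold, 13 that lost the call and 2 of the other sign, both of rrp45 in WT (-0.11 at the same total and -0.028 at the same upper quartile); left-out libraries gave 210 on the same side, 30 that lost the call and 0 of the other sign. Replicate numbers are shared between groups as numbers only. As a check, replicate 1 of each group was set against the mean of its group. These departures correlated between groups, across genes, at 0.066 to 0.617. A replicate block raised the calls for the difference of responses to 17 lower and 1 higher (448 and 431 of the 5019 genes tested). It moved no other count of members by over 1.5 times. Where the same gene is lost from the calls, the cause was not tested. With 2 libraries a group, differences between strains of the size of the replicate spread are not detectable.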

Other observations

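Within 1000 bases, 25 members or member pairs start head to head with another protein-coding gene. Of these partners, 21 belong to none of the ribosome lists and were tested. The lists go by gene name, so a partner outside them can still belong to the pathway. In WT 9 of the 21 were lower after H2O2 and 5 higher (35.6% and 36.4% of genes tested), with a median log2 fold change of 0.00. The most negative of them was SPAC3F10.16c, annotated as an HSR1-like GTP-binding protein, at -1.82 in Δtop1 and -1.66 in WT, whose start is 100 bases from that of ltv1, a late small subunit factor with -1.23 and -0.96. Of those that were higher, ste13, whose start is 198 bases from that of utp22, had a log2 fold change of 0.50 in Δtop1 and 0.61 in WT, where utp22, a processome protein, had -1.24 and -1.17. The partner of noc4, the mitochondrial ATP synthase gene atp4, had 0.54 in Δtop1 and 0.57 in WT, where noc4 had -1.33 and -0.58.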
